A study of Mus musculus with 8 samples.

Results

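miR-26a and miR-26b are 2 closely related microRNAs, measured here with 1 assay each, mmu-miR-26a (catalogue number 4395166) and mmu-miR-26b (catalogue number 4395167), of 750 distinct miRNA assays in all. They were chosen by assay name, and assays of the opposite hairpin arm, marked #, were left out. RNA came from CD34+/CD105- cells, sorted from collagenase-digested mouse renal artery, in 2 groups of 4 mice. CD34 marks endothelial and progenitor cells, and CD105 is endoglin, found on endothelial and mesenchymal stromal cells. In the ischemia/reperfusion group the renal arteries had been clamped on both sides with a microvascular clamp and then released, and the sham group had sham surgery. The labels give no strain, age, sex, clamp time or reperfusion time. The readout of an assay is the PCR cycle at which its signal crosses a threshold (Ct), so that more RNA gives a lower Ct, and a well counted as detected below Ct 35. The depth behind a Ct is unknown, so the precision of every value rests on the spread between mice.

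The miR-26 family is broadly expressed in differentiated tissue. Its members pair with target messenger RNAs through the seed, bases 2 to 8 of the mature strand, and are known to repress the histone methyltransferase Ezh2 and, in vascular endothelial cells, the BMP signalling factor Smad1, which limits angiogenesis. In mammals the miR-26 hairpins lie in introns of the Ctdsp genes, which encode small phosphatases of the RNA polymerase II tail, and are transcribed together with their hosts.

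The mature strands are shown because both assays read the same seed family. Sequences and positions are those of RefSeq on GRCm38.p6, where 2 of 2 assays matched by name to a 5p strand, and the capitals mark the seed.
mmu-miR-26a-5p: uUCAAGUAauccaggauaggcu
mmu-miR-26b-5p: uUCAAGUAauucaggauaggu
The seed was identical. Over the 21 positions that both strands have, 19 bases were the same. The differences, written as the miR-26a base, the position counted from 1 at the 5′ end and the miR-26b base, were C11U and C21U, and miR-26a was 1 base longer, at 22 bases. Of 1738 mature entries in the RefSeq table, 3 carried this seed, with 2 distinct sequences: miR-26b and the shared product of both miR-26a genes.

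The hairpins are shown because the miR-26a assay cannot tell its 2 genes apart. The capitals mark the mature 5p strand.
Mir26a-1: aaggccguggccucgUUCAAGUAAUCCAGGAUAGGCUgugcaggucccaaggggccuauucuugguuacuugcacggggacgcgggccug
Mir26a-2: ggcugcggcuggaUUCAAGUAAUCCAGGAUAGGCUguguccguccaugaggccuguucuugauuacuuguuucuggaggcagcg
Mir26b: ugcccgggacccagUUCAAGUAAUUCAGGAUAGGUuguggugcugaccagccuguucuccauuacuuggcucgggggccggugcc
Mir26a-1 lies at chr9:119031796-119031885 on the plus strand, inside the span of Ctdspl. Mir26a-2 lies at chr10:126995530-126995613 on the plus strand, inside the span of Ctdsp2, and Mir26b at chr1:74394310-74394394 on the plus strand, inside the span of Ctdsp1. The 2 miR-26a hairpins hold the same 22-base 5p strand and differ in their loops and opposite arms, so the miR-26a values below are the sum over both genes. Within 10000 bases of the 3 hairpins the annotation has 1 other miRNA gene, Mir546 beside Mir26a-2, and its assay had a Ct in 0 of 8 samples. The opposite arm of the miR-26b hairpin was represented by 1 assay, hsa-miR-26b#, which also had a Ct in 0 of 8 samples.

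The background of the whole data set bears on both members. After ischemia/reperfusion 82 to 98 miRNA assays were detected per mouse, and after sham surgery 75 to 163. The reference that the authors subtracted from these assays had a Ct of 21.4 ± 0.804 after ischemia/reperfusion and 20.0 ± 1.97 after sham surgery (SD, n = 4 each). The mean Ct of the 34 miRNAs of the same card that were detected in all mice was 28.7 ± 0.544 after ischemia/reperfusion and 26.7 ± 1.67 after sham surgery (SD, n = 4 each). A later Ct can mean fewer cells or less RNA per cell, and these cannot be told apart here. Of the endothelial markers, miR-126-3p was detected in all mice, at Ct 26.6 to 27.6 after ischemia/reperfusion and 22.2 to 25.7 after sham surgery. Its partner strand miR-126-5p, the other endothelial marker, was at Ct 27.8 to 28.8 after ischemia/reperfusion and 24.9 to 29.0 after sham surgery. Against the deposited reference the log2 differences of these strands had opposite signs, at -1.58 ± 0.57 for miR-126-3p and 0.11 ± 0.60 for miR-126-5p (SE, n = 4 per group).

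Several markers of other cell types were detected in more sham than ischemia/reperfusion mice. Over all miRNA assays, too, more were detected per sham mouse, 126.8 ± 37.5 against 89.8 ± 6.65 (SD, n = 4 each). In at least 1 sample, 2 of 2 smooth muscle, 3 of 4 leukocyte, 2 of 4 striated muscle and 3 of 6 kidney tubule markers were detected, and 0 of 2 erythroid and 0 of 2 neural markers. Of all 750 miRNA assays, 187 were detected in at least 1 sample. The tubule marker miR-194 was detected in 0 of 4 ischemia/reperfusion mice and in 2 of 4 sham mice, at Ct 20.5 and 23.7. The tubule marker miR-192 was detected in 0 ischemia/reperfusion mice and 1 sham mouse, at Ct 29.8. miR-204 overlapped between the groups, at Ct 27.2 to 31.55 in 2 ischemia/reperfusion mice and 27.21 to 29.76 in 3 sham mice. The tubule markers miR-200a, miR-200b and miR-200c had no Ct in any mouse. The smooth muscle marker miR-143 was detected in 0 ischemia/reperfusion mice and 2 sham mice, and miR-145 in all mice. Of the leukocyte markers, miR-142-3p was detected in 2 ischemia/reperfusion mice and 1 sham mouse, and miR-223 and miR-150 in all mice. Of the striated muscle markers, miR-206 was detected in 2 ischemia/reperfusion and 4 sham mice and miR-133a in 0 ischemia/reperfusion mice and 1 sham mouse. The part of these cell types in the miR-26 values below was not tested.

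miR-26a was detected in every mouse and was lower on average after ischemia/reperfusion, but the difference was within the spread between mice. Its Ct was 28.6, 28.0, 27.0 and 28.3 in ischemia/reperfusion mice 1 to 4, against 25.4, 27.2, 25.4 and 23.7 in sham mice 1 to 4. On the Ct scale ischemia/reperfusion mouse 3 came earlier than sham mouse 2, and the other ischemia/reperfusion mice came later than all sham mice.

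Against the deposited reference, the level is given as minus delta Ct, on a log2 scale where a higher value means more RNA. miR-26a stood at -7.53, -5.62, -6.48 and -6.58 in ischemia/reperfusion mice 1 to 4, against -4.79, -4.79, -6.41 and -5.78 in sham mice 1 to 4. All 4 ischemia/reperfusion mice lay below the sham mean, yet the groups overlapped: ischemia/reperfusion mouse 2 was above sham mice 3 and 4. The group means were -6.55 ± 0.783 after ischemia/reperfusion and -5.44 ± 0.793 after sham surgery (SD, n = 4 each). The log2 difference, ischemia/reperfusion minus sham, was -1.11 ± 0.65 (SE), with a 95% interval of -2.59 to 0.37. As a fold this is 0.463, with an interval of 0.166 to 1.295, an interval that covers both a large loss and a small gain. The difference did not pass limma with Benjamini-Hochberg adjustment over the 72 miRNAs tested (unadjusted p = 0.124, adjusted p = 0.496).

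Set against the sham mean, the level of miR-26a was 0.235-fold, 0.883-fold, 0.488-fold and 0.455-fold in ischemia/reperfusion mice 1 to 4. The sham mice themselves lay at 1.57-fold, 1.57-fold, 0.512-fold and 0.793-fold of their own mean. Ischemia/reperfusion mouse 1 was the lowest of the 8 mice, and sham mouse 3 was near ischemia/reperfusion mice 3 and 4.

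A measure that needs no reference is the rank of miR-26a by Ct among the 34 miRNAs of its card detected in all mice, where rank 1 is the lowest Ct. The rank was 21, 13, 12 and 14 in ischemia/reperfusion mice 1 to 4, against 11, 11, 14 and 10 in sham mice 1 to 4. Ischemia/reperfusion mouse 1 again stood lowest, and the other mice of that group lay within the sham ranks. Relative to the mean of these 34 miRNAs, miR-26a averaged 0.785 ± 0.680 log2 units above it after ischemia/reperfusion and 1.24 ± 0.359 above it after sham surgery (SD, n = 4 each).

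miR-26b had a larger mean difference and a wider spread, and the ischemia/reperfusion mice differed from each other. Its Ct was 30.7 in ischemia/reperfusion mouse 1, undetermined in mouse 2, 34.5 in mouse 3 and 28.2 in mouse 4, against 26.8, 28.0, 27.8 and 25.6 in sham mice 1 to 4. It was therefore detected in 3 of 4 ischemia/reperfusion mice and 4 of 4 sham mice. The Ct of ischemia/reperfusion mouse 4 was next to the latest sham Ct, that of mouse 3 was just under the detection limit, and mouse 2 gave no signal.

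Against the deposited reference miR-26b stood at -9.66, -13.94 and -6.49 in ischemia/reperfusion mice 1, 3 and 4, against -6.14, -5.59, -8.82 and -7.68 in sham mice 1 to 4. Mouse 2 of the ischemia/reperfusion group has no value here. Ischemia/reperfusion mouse 4 lay above 2 of the 4 sham mice, while mice 1 and 3 lay below all of them. The means were -10.03 ± 3.74 after ischemia/reperfusion (SD, n = 3) and -7.06 ± 1.47 after sham surgery (SD, n = 4). The log2 difference was -2.98 ± 1.70 (SE), with a 95% interval of -6.91 to 0.96, and did not pass (limma unadjusted p = 0.119, adjusted p = 0.496 over the 72 miRNAs, with the undetermined well left out). This SE draws on the variances of all tested miRNAs. From the variance of miR-26b alone the SE was 2.005 (limma without moderation, unadjusted p = 0.198). An exact permutation test of the same values gave p = 0.2. Without ischemia/reperfusion mouse 3 the log2 difference was -1.02 ± 1.30 (SE), and without ischemia/reperfusion mouse 4 it was -4.75 ± 1.47 (SE), each from 2 ischemia/reperfusion and 4 sham values. With the undetermined well set to Ct 35 it was -3.62 ± 1.61 (SE, n = 4 per group; limma unadjusted p = 0.0527, adjusted p = 0.470).

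In fold of the sham mean, miR-26b was 0.164-fold, 0.00846-fold and 1.48-fold in ischemia/reperfusion mice 1, 3 and 4. The sham mice lay at 1.89-fold, 2.77-fold, 0.295-fold and 0.648-fold. The interval of the group fold of 0.127 ran from 0.00833 to 1.94. In the authors' deposited table the fold is 0.463 for miR-26a and 0.127 for miR-26b, and recomputing from the deposited delta Ct values gave those folds. The deposited fold of miR-26b therefore also leaves out ischemia/reperfusion mouse 2 and gives mouse 3 full weight.

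**Figure D1:**
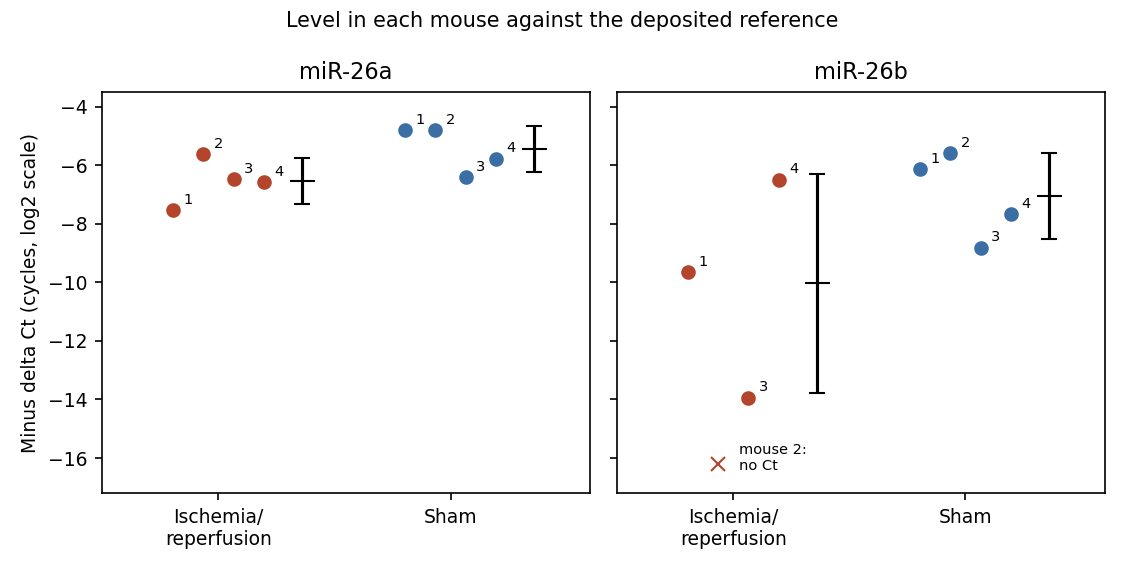
Minus delta Ct (cycles, log2 scale, higher means more RNA) of miR-26a and miR-26b in each mouse, with mouse numbers beside the points, black dashes for group means and bars for SD; the cross marks ischemia/reperfusion mouse 2, which had no Ct for miR-26b and has no position on the axis. miR-26a spans -7.53 to -5.62 after ischemia/reperfusion and -6.41 to -4.79 after sham surgery, while miR-26b reaches from -13.94 to -6.49 after ischemia/reperfusion.

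The spread of each member was set beside that of all 72 tested miRNAs. Among ischemia/reperfusion mice miR-26a ranged over 1.91 cycles and miR-26b over 7.45 cycles, beside a median range of 2.22 cycles for all tested miRNAs. By width of that range miR-26b was in place 5 and miR-26a in place 48. Among sham mice miR-26a ranged over 1.62 cycles and miR-26b over 3.23 cycles, beside a median of 2.74 cycles, in places 57 and 30. miR-26a was thus among the steadier miRNAs in both groups, and miR-26b was near the middle in sham mice and near the wide end after ischemia/reperfusion.

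The low value in ischemia/reperfusion mouse 3 was not shared by miR-26a. Over 69 tested miRNAs with a value in that mouse, its level minus the mean of the other ischemia/reperfusion mice had a median of -0.60. For miR-26a this difference was 0.10, and for miR-26b it was -5.86, the lowest of the 69. The miR-26b difference was taken from the mean of mice 1 and 4 only, since mouse 2 had no Ct. Among the 69, the only other miRNA more than 4 cycles lower in that mouse was miR-99b, named here after its values were seen. A further 3 tested miRNAs had a Ct there that was not below the detection limit, and were left out of this comparison. Whether any of them was as low as miR-26b in that mouse was not tested.

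The missing value in ischemia/reperfusion mouse 2 was set beside the other tested miRNAs, which all had to be detected in at least 3 mice of each group, so that missing values among them are few by construction. Of the 72 tested miRNAs, 9 (12.5%) were not detected in that mouse, of which 3 had no Ct at all: miR-26b, and miR-484 and hsa-miR-196a, both named after their values were seen. Of the 27 tested miRNAs of the same card with a mean sham Ct at or below the 27.1 of miR-26b, only 1, miR-26b itself, had no Ct there. In sham mouse 2, which had the fewest detected assays, 7 of the 72 (9.72%) were not detected, of which 6 had no Ct, and miR-26b was at Ct 28.0. Why the well gave no Ct was not tested.

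Because both assays share a card and a reference, the Ct of miR-26b minus that of miR-26a within a mouse does not depend on the normalization. This gap was 2.13, 7.46 and -0.088 cycles in ischemia/reperfusion mice 1, 3 and 4, against 1.34, 0.794, 2.41 and 1.90 cycles in sham mice 1 to 4. Its size says nothing of absolute amounts, since the labels and file headers give no assay efficiencies. The sham gaps lay within 1.62 cycles of each other, and miR-26b came later than miR-26a in 4 of 4 sham mice. The ischemia/reperfusion gaps spanned 7.55 cycles, with mouse 1 inside the sham range, mouse 3 far above it and mouse 4 below it. In ischemia/reperfusion mouse 2 the gap was not measured. It would be 7.01 cycles with Ct 35 in the undetermined well and 12.01 cycles with Ct 40, values set by the Ct filled in.

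The mean gap was 3.17 ± 3.88 cycles after ischemia/reperfusion (SD, n = 3) and 1.61 ± 0.699 cycles after sham surgery (SD, n = 4). The difference of 1.56 cycles was within the spread between mice (exact two-sided permutation test over 35 assignments, p = 0.600). With the undetermined well at Ct 35 the difference was 2.52 cycles (exact permutation p = 0.343), and without ischemia/reperfusion mouse 3 it turned to -0.59 cycles (exact permutation p = 0.533). The mice of the ischemia/reperfusion group lay on both sides of the sham gaps.

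**Figure D2:**
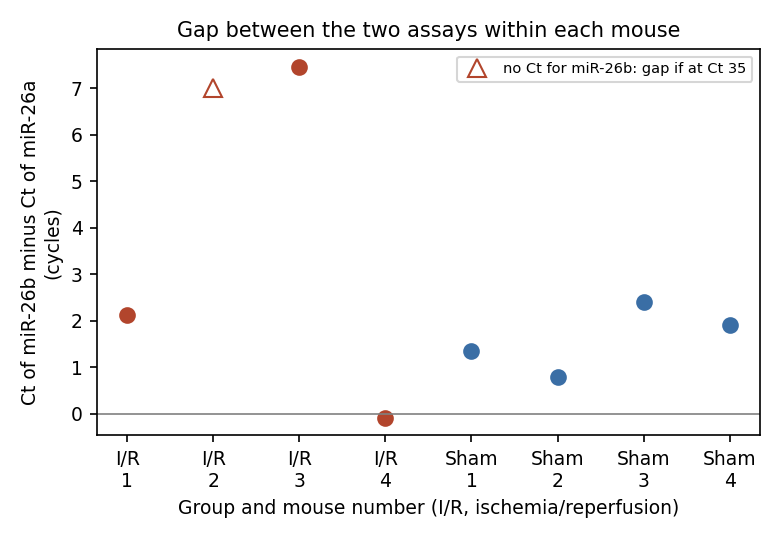
Ct of miR-26b minus Ct of miR-26a (cycles) in each mouse, ischemia/reperfusion (I/R) mice at left in red and sham mice at right in blue; the open triangle is ischemia/reperfusion mouse 2, not measured and drawn at the gap of 7.01 that the chosen Ct of 35 would give. The 4 sham mice lie between 0.794 and 2.41, and the ischemia/reperfusion mice with a Ct lie at 2.13, 7.46 and -0.088.

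Both members were read against the 72 tested miRNAs. By limma 0 of 72 (0%) passed an adjusted p of 0.05, and 10 (13.9%), all lower after ischemia/reperfusion, had an unadjusted p under 0.05. An exact permutation test per miRNA gave 0 after adjustment and 2 at an unadjusted p under 0.05. Its smallest possible p for 4 against 4 or 3 against 4 mice is 0.0286. That could pass the adjustment only if most of the 72 miRNAs reached it, so the 0 says little. Neither member was among the 10 by limma: miR-26b was in place 17 and miR-26a in place 18 by p. By the size of the difference, counted from the most negative, miR-26b was in place 5 and miR-26a in place 29. Of all tested miRNAs 49 (68.1%) had a lower mean after ischemia/reperfusion, so both members share the sign of most tested miRNAs. The groups did not overlap for 5 of the 72 (6.94%) on the minus delta Ct scale, and miR-26a and miR-26b were not among them.

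**Figure D3:**
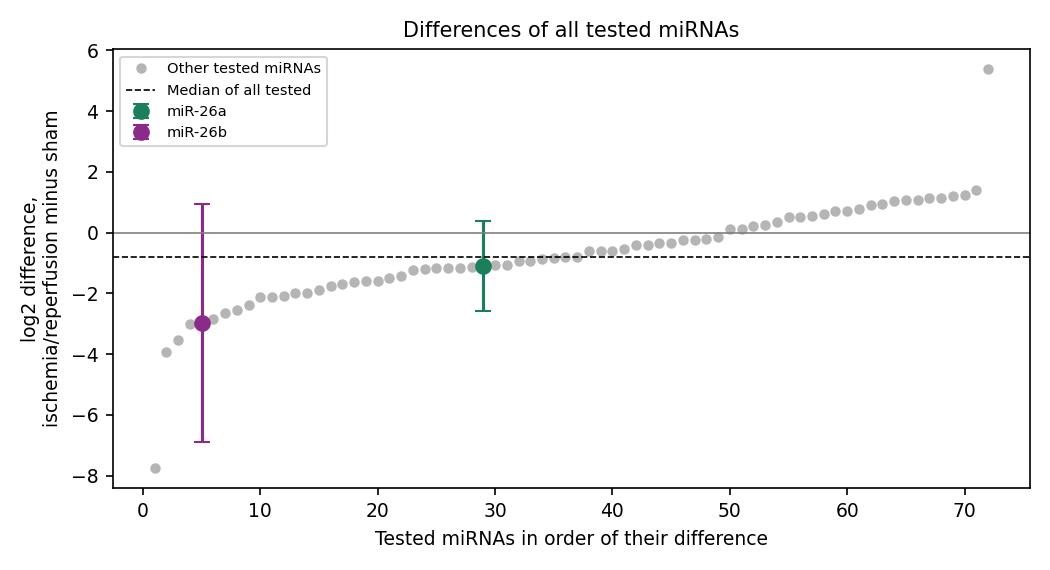
log2 difference (ischemia/reperfusion minus sham) of the 72 tested miRNAs in order of size, grey points, with miR-26a and miR-26b in colour and bars for their 95% intervals; the dashed line is the median of all tested, -0.80. The interval of miR-26a, -2.59 to 0.37, and that of miR-26b, -6.91 to 0.96, both include 0.

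The reference moved the size of both differences and not their sign. With the reference replaced by the average Ct of the miRNAs that every mouse expressed above the limit, card by card, the log2 difference was -0.45 ± 0.54 for miR-26a and -1.997 ± 1.63 for miR-26b (SE). The median of all tested miRNAs was then -0.31, and 41 of 72 (56.9%) were lower. Against the control snoRNA202, which was measured on the other card, it was -1.79 ± 0.63 for miR-26a and -3.59 ± 1.65 for miR-26b (SE), at a median of -1.22. Without normalization it was -2.50 ± 0.89 for miR-26a and -4.04 ± 1.48 for miR-26b (SE), at a median of -1.93, with 65 of 72 (90.3%) lower. Measured from the median of all tested miRNAs, miR-26a stood at -0.31 with the deposited reference and between -0.57 and -0.14 with the others. On that measure miR-26b stood at -2.18 with the deposited reference and between -2.36 and -1.69 with the others.

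With snoRNA202 as reference, miR-26a was among 20 of 72 miRNAs (27.8%) at an unadjusted limma p under 0.05. Its limma adjusted p in that fit was 0.109, from an unadjusted 0.0192. Without normalization both members were among 21 of 72 (29.2%), with a limma p of 0.0198 for miR-26a and 0.0258 for miR-26b and an adjusted p of 0.123 for both. On the Ct scale, the measured ischemia/reperfusion values of miR-26b, 28.2 to 34.5, all came later than the sham values, 25.6 to 28.0 (exact permutation p = 0.0286, the smallest that 3 against 4 values allow). The margin between the groups rests on ischemia/reperfusion mouse 4 and sham mouse 2. Groups that did not overlap in this direction were found for 10 of 72 miRNAs (13.9%). Over the 12 single measures compared by exact permutation tests, including the Ct, level, gap and rank values, the lowest adjusted p was 0.343. With a smallest possible p of 0.0286, it could fall under 0.05 only if most of these measures reached that p. The reference Ct itself was 1.39 cycles later after ischemia/reperfusion (exact permutation p = 0.286). For miR-26a, measured in all mice, this shift is the whole step from -2.50 without normalization to -1.11 with the deposited reference. For miR-26b the step, over the mice with a Ct, was from -4.04 to -2.98. Why the reference came later was not tested.

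**Figure D4:**
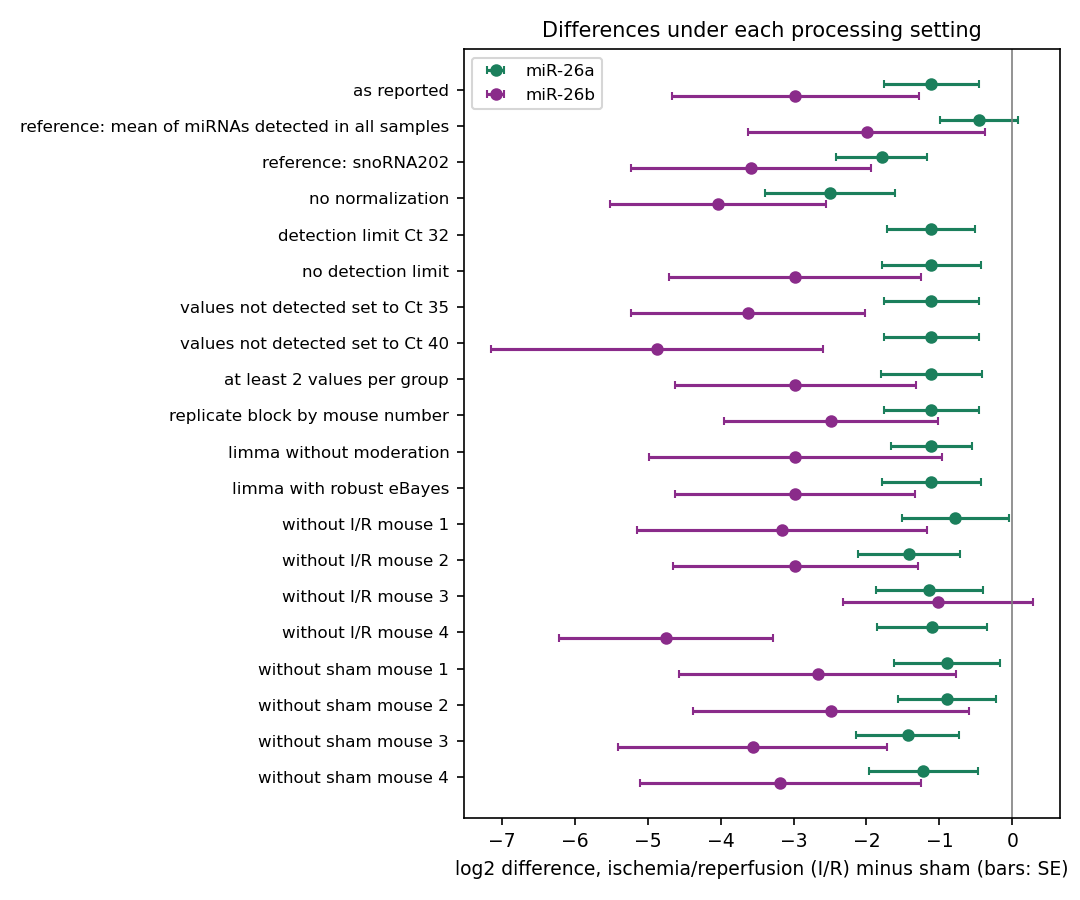
log2 difference (ischemia/reperfusion, I/R, minus sham) of miR-26a in green and miR-26b in purple under each processing setting, with bars for the SE; no value of miR-26b exists at a detection limit of Ct 32. All values lie below 0, miR-26a between -2.50 and -0.45 and miR-26b between -4.87 and -1.02.

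The miRNAs with the pattern over mice nearest to each member were found by the root mean square difference of minus delta Ct, after each miRNA was centred on its own mean. For miR-26a, over 8 mice and 53 miRNAs detected in all samples, the nearest was miR-92a, known to restrain blood vessel growth, at 0.355 cycles, beside a median distance of 1.27 cycles. miR-24 was next at 0.415 cycles, the endothelial miR-126-3p at 0.500 cycles, miR-29a, which represses collagen genes, at 0.562 cycles and miR-30b at 0.588 cycles. miR-92a stood at -6.65, -4.61, -5.48 and -5.43 in ischemia/reperfusion mice 1 to 4, against -3.88, -3.64, -5.16 and -5.74 in sham mice 1 to 4. As for miR-26a, mouse 1 was the lowest and mouse 2 the highest of the ischemia/reperfusion mice. The log2 differences of these 5 miRNAs ran from -1.58 for miR-126-3p to -0.36 for miR-29a, and that of miR-26a lay between them. These likenesses follow from the choice, since the 5 were picked for nearness over these same mice of both groups. All 5 share the card, and so the reference, with miR-26a.

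For miR-26b, over the 7 mice with a Ct and 54 miRNAs, no miRNA was as near. The nearest was miR-195, of the miR-15/16 family, at 1.48 cycles, beside a median of 2.63 cycles. miR-218, which is encoded within the Slit genes, followed at 1.65 cycles, rno-miR-664 at 1.98 cycles, miR-126-3p at 2.09 cycles and miR-24 at 2.11 cycles. Of these 5, rno-miR-664 is on the other card, with another reference, and the rest share the card and reference of miR-26b. miR-26a was in place 8, at 2.26 cycles. miR-195 stood at -7.10, -6.53, -10.55 and -7.32 in ischemia/reperfusion mice 1 to 4, against -5.44, -6.52, -7.78 and -6.78 in sham mice 1 to 4. Like miR-26b, it was lowest in ischemia/reperfusion mouse 3, a likeness that the choice by nearness favours, but it had a Ct in mouse 2.

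**Figure D5:**
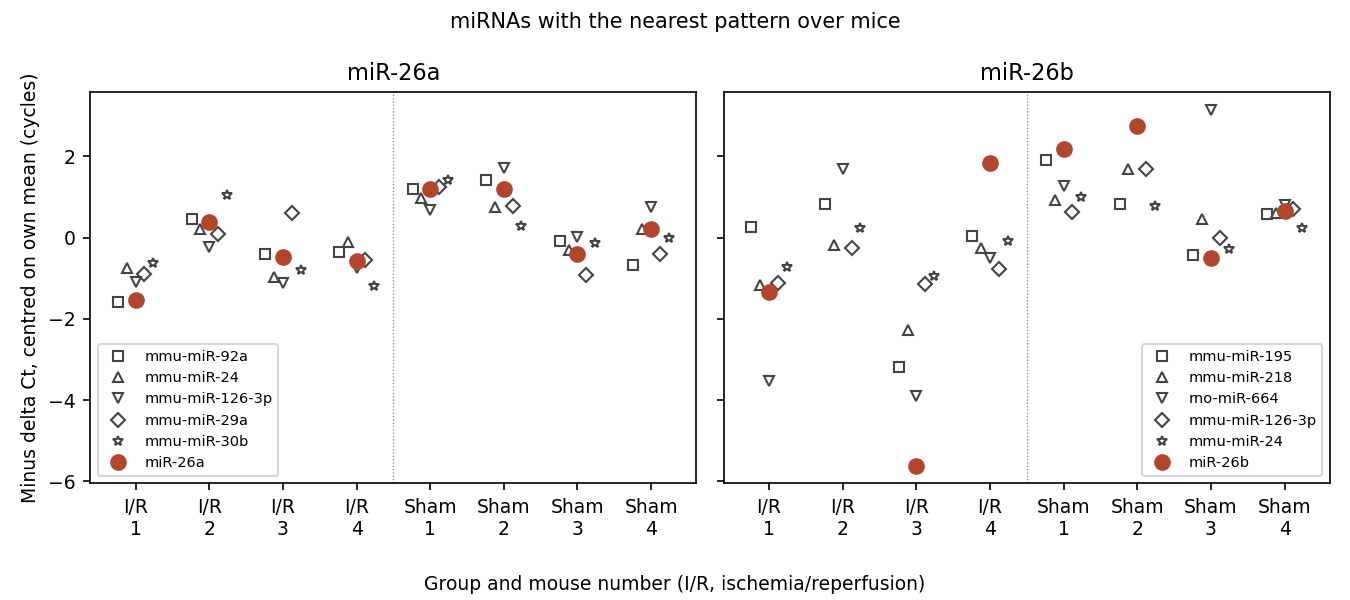
Minus delta Ct of miR-26a (left) and miR-26b (right), red points, with the 5 miRNAs nearest in pattern, open symbols, each centred on its own mean over the mice in which the member had a Ct; I/R is ischemia/reperfusion. miR-92a follows miR-26a at a root mean square difference of 0.355 cycles, and miR-26b lies below all 5 neighbours in ischemia/reperfusion mouse 3.

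Both members are listed among miRNAs that respond to low oxygen in cultured human cells, so the other miRNAs of that list were set beside them. Of 16 listed, 15 were assayed, 8 were detected in at least 1 sample and 4 passed the filter. Of all 750 miRNA assays, 187 were detected in at least 1 sample and 72 passed. Of the 4 listed miRNAs that passed, 2 had lower and 2 higher means after ischemia/reperfusion and 0 passed the limma threshold. Their median log2 difference was -0.29, beside -0.80 for all tested miRNAs. That median has no settled sign: it was 0.37 with the average of the always-detected miRNAs as reference, 0.16 with at least 2 values per group, and between -0.60 and -0.051 when each mouse was left out, nearest to 0 without ischemia/reperfusion mouse 3. miR-24 was at -0.81 ± 0.57 and miR-195 at -1.24 ± 0.97 (SE, n = 4 per group). miR-125b-5p was at 0.24 ± 0.77 and miR-181a at 0.53 ± 0.95 (SE), where miR-181a had 3 ischemia/reperfusion values.

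A list of miRNAs of endothelium, smooth muscle and mesenchymal cells of the vessel wall had 14 members. Of these 12 passed the filter, beside 72 of all 750 miRNA assays. The means of the 12 were lower for 10 and higher for 2, beside 49 of all 72 (68.1%) lower. None of the 12 passed the adjusted limma threshold, and 6 were lower at an unadjusted p under 0.05, beside 10 of all 72 (13.9%). Over the list the log2 difference had a median of -1.94, beside -0.80 for all tested miRNAs. miR-26a, at -1.11, lay above that median and miR-26b, at -2.98, below it. The 4 members with the smallest p were miR-214, abundant in mesenchymal cells, at -3.95 ± 1.17 (SE, 4 ischemia/reperfusion and 3 sham values), miR-218 at -1.89 ± 0.66, miR-222 at -2.12 ± 0.74 and miR-199a-3p, encoded next to miR-214, at -2.65 ± 0.92 (SE, n = 4 per group). Another tested miR-214 assay, hsa-miR-214, which the list did not use, was at only -0.86 ± 0.87 (SE, n = 4 per group). It is named here after its values were seen.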

How the data were processed

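Per the labels' protocols, RNA was extracted using mirVana reagents and quantified by real-time PCR with FAM label on a 7900HT Fast instrument. The authors deposited Ct values, delta Ct values on a log2 scale (Ct minus 1 reference per sample and card, computed by the authors; the reference RNA is not given in the sources used here) and a deposited fold change, a ratio defined per the file headers. The labels number the mice within each group, and they were taken as biological replicates.

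Here the sign of delta Ct was turned, values at or above Ct 35 and undetermined wells were missing, repeated wells were averaged, and the 72 miRNAs detected in at least 3 mice of each group were fitted with limma 3.58.1 in R 4.3.3 (lmFit, eBayes, two-sided, Benjamini-Hochberg at 0.05). Cards were taken from the catalogue numbers. Single values were compared with exact two-sided permutation tests. The fit was tested on simulated data. The members, lists and tests were chosen with earlier results of these data known. Named miRNAs are the members, the opposite-arm assay, the 4 listed miRNAs with the smallest p per list and the 5 nearest in pattern per member. Alternatives were other references, detection limits, filters, missing-value settings, variances, a block by mouse number and leaving out each mouse.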

Additional observations from a re-analysis of the deposited data

How the results depend on the processing

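The log2 difference of miR-26a kept its sign and its side of the threshold under 20 of 20 alternatives, from -2.50 to -0.45 (limma adjusted p 0.109 to 0.721), and that of miR-26b under 19 of 19, from -4.87 to -1.02 (adjusted p 0.123 to 0.704). Among these alternatives, the exact permutation test could hardly pass the adjustment, since its smallest possible p is 0.0286. The lowest of the miR-26b values came with its undetermined well at Ct 40, a setting chosen after seeing the data, and the highest without ischemia/reperfusion mouse 3. At a detection limit of Ct 32 miR-26b had only 2 ischemia/reperfusion values and could not be tested. When each mouse was left out, miR-26a ranged from -1.43 to -0.78 and miR-26b from -4.75 to -1.02. The gap between the assays ranged from -0.59, without ischemia/reperfusion mouse 3, to 3.18 cycles, without ischemia/reperfusion mouse 4. The count of miRNAs past the threshold was 1 without a detection limit (hsa-miR-421) and 0 to 1 when each mouse was left out: miR-1896 passed without sham mouse 1 and miR-199a-3p without sham mouse 2.

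The median of the hypoxia list turned to 0.37 with the average of the always-detected miRNAs as reference and to 0.16 with at least 2 values per group, where 6 members were tested, and was -1.68 without normalization. With 7 of the 8 mice it lay between -0.60 and -0.051. The median of the vessel wall list was -2.67 against snoRNA202, -3.38 without normalization and -1.13 at Ct 32, where 7 members were left. The detection limit and the filter changed which members were tested. A change of reference moved every miRNA of a card with values in the same mice by the same amount. Why the references differed between the groups was not tested.

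The labels use the same mouse numbers in both groups and do not say whether they pair mice. Same-numbered mice did not deviate together (correlations of -0.38, -0.15, 0.020 and -0.25 over 54 miRNAs). The mice were therefore taken as unpaired, though such a check cannot exclude a pairing. With a replicate block the log2 difference was -1.11 for miR-26a and -2.49 for miR-26b, the gap differed by 1.28 cycles, the list medians were -0.29 and -1.99, and 0 miRNAs passed. For miR-26b and the gap, the missing Ct of ischemia/reperfusion mouse 2 left sham mouse 2 without a partner in the block. Both values therefore equal those obtained by leaving out sham mouse 2, and the gap compares 3 with 3 mice. The spread between mice, and a Ct of miR-26b near the detection limit in ischemia/reperfusion mouse 3, limit what these values can show.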
